A study of Mus musculus with 6 samples.

Results

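The genes of the chemokine system were examined in whole liver of mice on a high-fat diet whose hepatocytes carried less KLF6, a transcription factor, and of their littermates. They were taken as every gene whose symbol begins with Ccl, Cxcl, Cx3cl or Xcl (ligands) or with Ccr, Cxcr, Cx3cr or Xcr (receptors) followed by a number, and that had a probe set naming it alone. There were 48 such genes of 14860 genes on the array, 31 ligands and 17 receptors, each with 1 probe set. Total RNA had been hybridised to Affymetrix mouse exon arrays, 1 array per mouse. DeltaHepKlf6 livers came from 3 mice whose KLF6 was reduced in hepatocytes, labelled both as knockdown and as knockout, with improved glucose tolerance and less steatosis. Control livers came from 3 littermates labelled wild type, with glucose intolerance and marked steatosis. Both groups were fed the high-fat diet for 8 weeks. What drove the reduction in hepatocytes, and the age, sex and strain of the mice, are not given in the sources used here. The reduction is labelled as one of hepatocytes. Klf6 in other liver cells, which also make chemokines, was not measured apart.

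Chemokines are small secreted proteins that direct the migration of leukocytes by way of G-protein-coupled receptors on these cells. In liver, Kupffer cells, endothelial cells, stellate cells and stressed hepatocytes are known sources of ligands, while most of the receptors sit on monocytes, neutrophils and lymphocytes that enter from the blood. Inflammatory ligands are induced through NF-kappa-B and interferon signalling, and a smaller set of ligands is made in resting tissue.

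The deposited values are on the log2 scale. Array medians lay between 5.49 and 5.55. The hepatocyte genes Alb, Ttr, Asgr1 and Hnf4a, the 4 measured of 8 listed hepatocyte markers, averaged 11.66 to 11.91 in DeltaHepKlf6 livers and 11.85 to 11.94 in Control livers, so the tissue label holds. The Klf6 probe set read 5.93, 5.43 and 5.45 in DeltaHepKlf6 1, 2 and 3, against 6.80, 6.09 and 5.88 in Control 1, 2 and 3. The ranges of Klf6 overlap, and its log2 difference of -0.65 did not pass the test (limma, adjusted p = 0.998). In whole tissue, fewer cells of a type and less RNA per cell cannot be told apart for any gene below.

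Of the 48 genes, 18 (37.5%) had a mean over the 6 arrays above the array median, which is 5.508 over all 23332 probe sets. Among ligands this was 15 of 31, and among receptors 3 of 17. The ligands were Ccl3, Ccl9, Ccl11, Ccl24, Ccl25, Ccl28, Cxcl1, Cxcl9, Cxcl10, Cxcl11, Cxcl12, Cxcl13, Cxcl14, Cxcl16 and Cxcl17, and the receptors were Ccr10, Cx3cr1 and Cxcr2. Closest to the line stood Ccl3 with 5.59 on the upper side, and Ccr2 with 5.41 and Ccl5 with 5.40 on the lower side. Of all single-gene genes, 56.9% lay above the line. A value above the median is a position on the array and no proof of expression, because probe sets differ in binding and no detection calls were used.

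**Figure D1:**
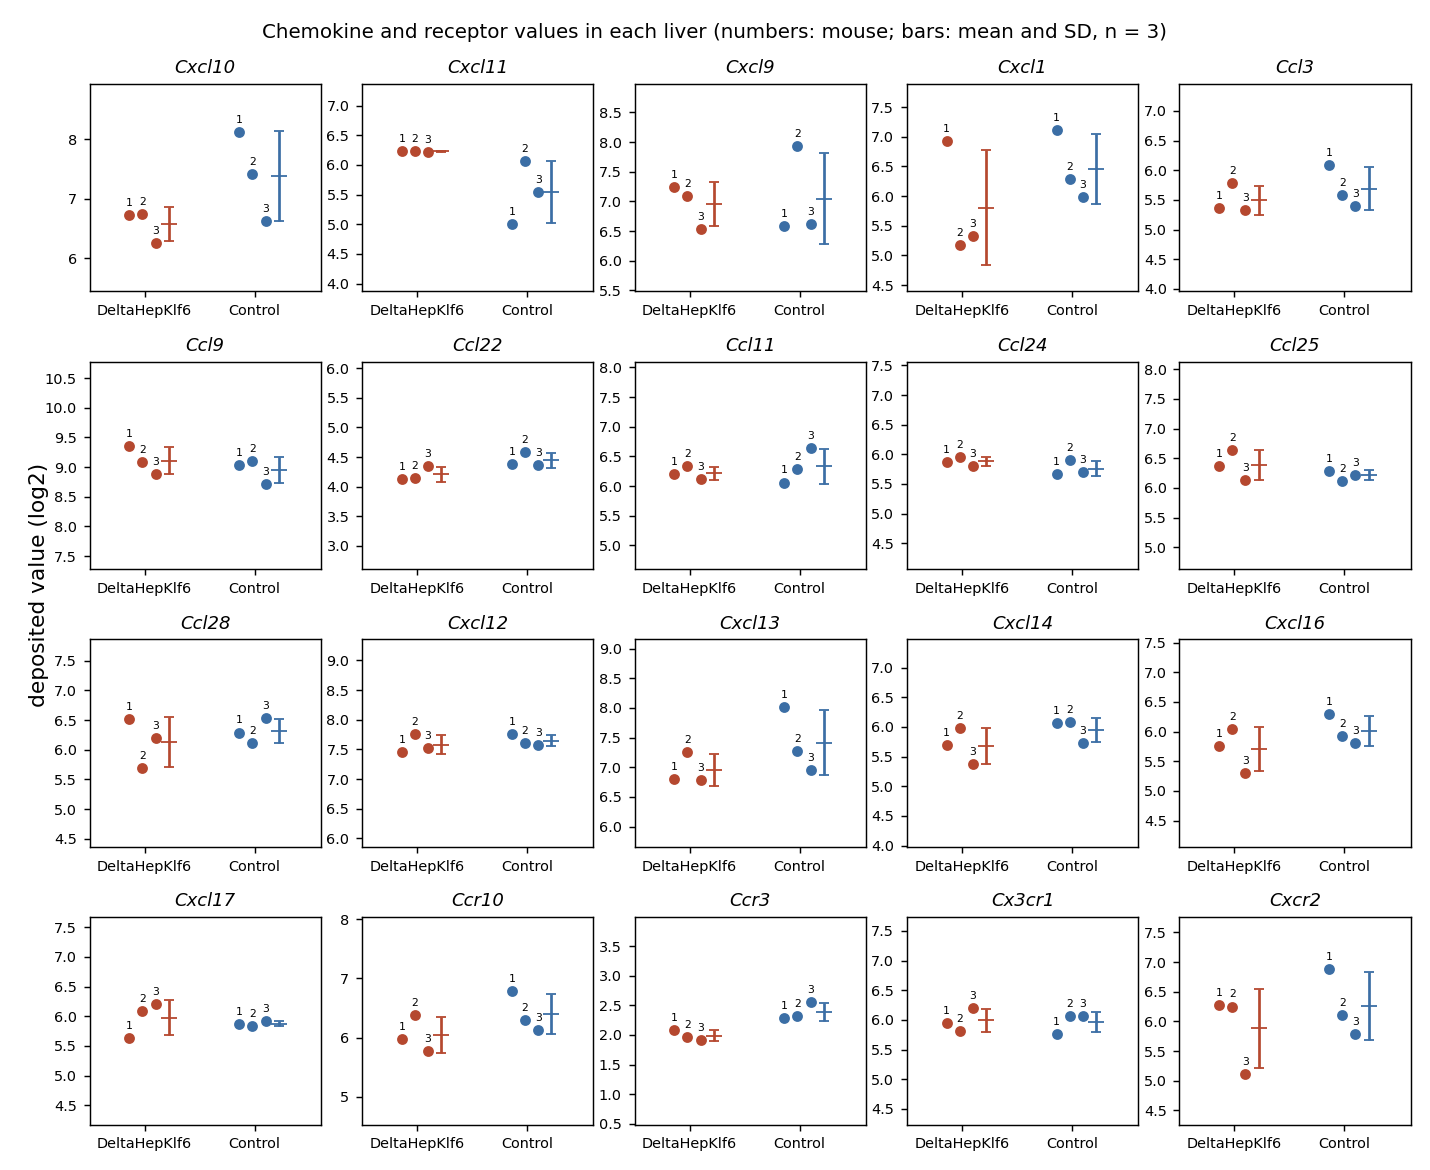
Deposited log2 value in each liver (y axis) for the 18 chemokine and receptor genes above the array median and for Ccl22 and Ccr3, DeltaHepKlf6 left and Control right; points are mice with their numbers, bars are the mean and SD (n = 3), and every panel spans the same range of log2 units. The groups stand apart without overlap in Cxcl11, Ccl22 and Ccr3, and Control 1 is the top point in Cxcl10, Cxcl1, Cxcl13 and Cxcr2.

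No chemokine or receptor gene differed between the genotypes by limma's test. The count was 0 of 48 at a Benjamini-Hochberg adjusted p under 0.05, against 0 of 23332 (0.0%) over all probe sets. At an unadjusted p under 0.05 there were 2 of 48 genes, Cxcl11 higher and Ccr3 lower in DeltaHepKlf6 livers, or 4.17%, beside 3.21% of all probe sets, 1.61% lower and 1.61% higher. The genotypes did not overlap in 3 of 48 genes, Ccr3 and Ccl22 lower and Cxcl11 higher in DeltaHepKlf6 livers, or 6.25%, beside 6.72% of all probe sets, 3.67% lower and 3.05% higher. DeltaHepKlf6 livers had the lower mean in 30 of 48 genes, or 62.5%, beside 56.6% of all probe sets and 62.1% of all single-gene genes. The median log2 difference, DeltaHepKlf6 minus Control, was -0.12 over the 48 genes, or -0.05 without Control 1, and -0.037 over all probe sets. Over all single-gene genes 1.68% had an unadjusted p under 0.05 by limma, 6.31% did not overlap, and the median was -0.053. The share without overlap and the share with a lower mean stand close to those of single-gene genes. The share at an unadjusted p under 0.05 is higher but rests on 2 genes, and the median lies further below 0.

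Ligands and receptors were counted apart. Among ligands 22 of 31 had the lower mean in DeltaHepKlf6 livers, or 71.0%, with a median log2 difference of -0.15. Among receptors 8 of 17 did, or 47.1%, with a median of 0.023. The share of all single-gene genes was 62.1%. Over the 18 genes above the array median 12 were lower, or 66.7%, beside 64.0% of all probe sets above it. A difference of at least 1.5-fold was seen in Cxcl10, Cxcl1 and Cxcl11, which is 6.25% of the genes, beside 7.66% of all probe sets.

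The precision of 3 arrays against 3 sets what these comparisons can show. The 95% interval of the difference lay within a 2-fold change either way for 37 of 48 genes. It reached a 2-fold change for Cxcl1, Cxcl2, Cxcl9, Cxcl10, Cxcl11, Cxcl13, Ccl5, Cxcr2, Cxcr6, Ccr7 and Ccr1l1. For those 11 genes a 2-fold difference in the direction the interval reaches can be neither seen nor excluded with this number of mice. That direction is higher in DeltaHepKlf6 livers for Cxcl11, Cxcr6 and Ccr1l1, and lower for the others. Among the 37 genes are some that read low on the array, such as Ccr3 with a mean of 2.19 and Ccl12 with 2.67. For such genes the interval describes the signal of the probe set, and whether the gene is expressed is unknown. A 2-fold change of their transcripts is therefore not excluded.

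**Figure D2:**
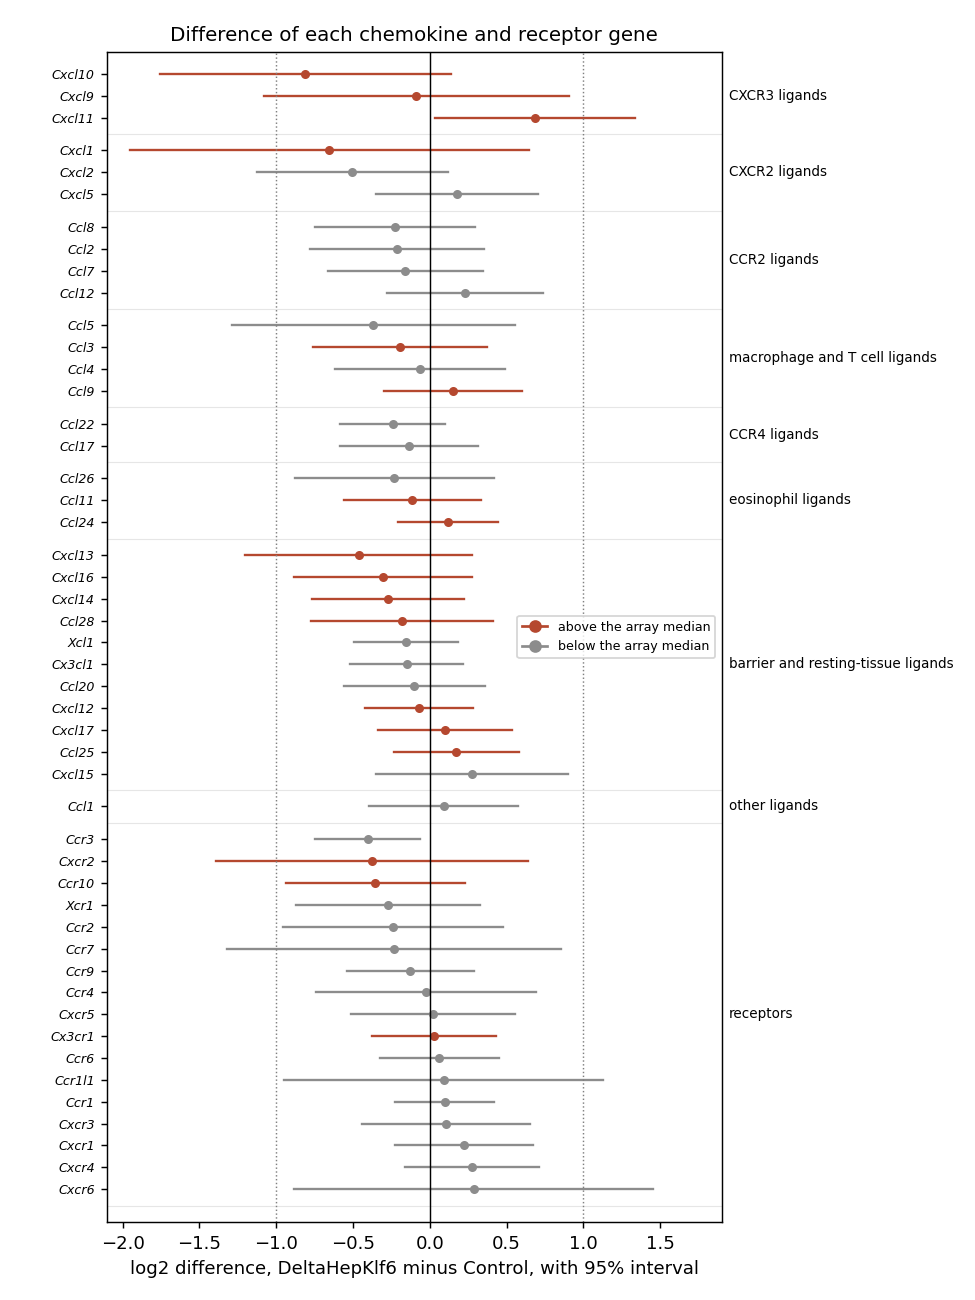
Log2 difference of each of the 48 genes (x axis, DeltaHepKlf6 minus Control; point: estimate, line: 95% interval of the limma fit), grouped by role, red above and grey below the array median, with dotted lines at a 2-fold change. Cxcl11 and Ccr3 are the 2 genes whose interval stays clear of 0, and the interval of Cxcl1, from -1.95 to 0.65, is the widest.

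Signals for activated T cells and NK cells run through Cxcl9, Cxcl10 and Cxcl11, the ligands of CXCR3, which interferon gamma induces together. Their genes lie beside each other on chromosome 5, with Art3 between Cxcl9 and Cxcl10, and RefSeq (GRCm38.p6) lists Cxcl11 as a transcribed pseudogene in the C57BL/6J reference mouse. The 3 ligands differed in direction, Cxcl10 and Cxcl9 with a lower and Cxcl11 with a higher mean in DeltaHepKlf6 livers. Cxcl10 had 6.73, 6.75 and 6.25 in DeltaHepKlf6 1, 2 and 3, against 8.13, 7.41 and 6.62 in Control 1, 2 and 3. Control 1 and 2 were high, and Control 3 lay within the DeltaHepKlf6 range. The mean was 6.58 ± 0.283 in DeltaHepKlf6 and 7.39 ± 0.755 in Control (SD, n = 3 each; limma log2 difference -0.81 ± 0.39 SE, interval -1.76 to 0.14, adjusted p = 0.998). Without Control 1 it was -0.44, and without Control 3 it was -1.19.

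Cxcl11 stood on the other side. It had 6.23, 6.23 and 6.22 in DeltaHepKlf6 1, 2 and 3, against 5.01, 6.06 and 5.55 in Control 1, 2 and 3. The DeltaHepKlf6 values were nearly equal and all higher than every Control value, and Control 1, the highest array for Cxcl10, was the lowest for Cxcl11. Cxcl11 thus differed by 0.69 ± 0.27 (SE) on the log2 scale, interval 0.04 to 1.34 (limma, unadjusted p = 0.0417, adjusted p = 0.998), and by 0.42 without Control 1. It was 0.49 with array weights, 0.72 after quantile normalization and 0.71 with equal array medians, where Cxcl10 was at -0.72, -0.73 and -0.79.

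Cxcl9 had 7.24, 7.09 and 6.54 in DeltaHepKlf6 1, 2 and 3, against 6.58, 7.93 and 6.62 in Control 1, 2 and 3. Here Control 2 was the high array and the groups overlapped, with a log2 difference of -0.09 ± 0.41 (SE). Without Control 2 the difference of Cxcl9 was 0.36, without Control 1 it was -0.32, and with array weights -0.32. The log2 ratio of Cxcl10 to Cxcl11 within an array was 0.50, 0.52 and 0.03 in DeltaHepKlf6 1, 2 and 3, against 3.12, 1.35 and 1.07 in Control 1, 2 and 3. The ratio was thus lower in each DeltaHepKlf6 liver, although this pair was picked after the values were seen, and it is given without a test. The receptor gene Cxcr3 was below the array median, with means of 4.62 ± 0.37 in DeltaHepKlf6 and 4.51 ± 0.198 in Control (SD, n = 3 each).

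T and NK cells answer to these ligands. Their markers were lower in DeltaHepKlf6 livers in 10 of 14 measured genes, or 71.4%, beside 62.1% of all single-gene genes. With single arrays left out, 7 to 12 of the markers were lower. Their mean log2 level ranged from 4.62 to 4.77 in DeltaHepKlf6 livers and from 4.73 to 4.92 in Control livers, highest in Control 2. Cd3e averaged 5.61 in DeltaHepKlf6 and 6.09 in Control, and Cd2 5.66 in DeltaHepKlf6 and 6.08 in Control. The other way went 4 of the 14 markers, among them Cd3d with 4.45 in DeltaHepKlf6 and 4.30 in Control. The part of T and NK cells in the values of Cxcl9, Cxcl10 and Cxcl11 was not tested.

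The sequence around the start of the ligand genes is shown for Cxcl10 and Cxcl9, near neighbours with unlike values in Control 1, and for Cxcl1 and Cxcl2, the ligands with the most negative differences after Cxcl10. Each is the RefSeq promoter of build GRCm38.p6, from 250 bases before to 50 bases after the start, written 5′ to 3′ along the gene. Capitals mark matches to GGGNNTTNC, 9 letters of a common NF-kappa-B site, or to GAAANNGAA, 9 letters of an interferon-stimulated response element. Both strands were searched, and no matches of the 2 kinds overlap in these sequences.
Cxcl10 promoter, chr5:92348840-92349139, minus strand: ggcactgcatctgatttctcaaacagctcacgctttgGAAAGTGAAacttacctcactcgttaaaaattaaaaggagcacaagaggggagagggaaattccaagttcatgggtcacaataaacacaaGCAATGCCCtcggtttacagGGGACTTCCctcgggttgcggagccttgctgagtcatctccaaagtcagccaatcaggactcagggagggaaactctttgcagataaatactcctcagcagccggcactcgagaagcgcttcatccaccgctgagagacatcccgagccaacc
Cxcl9 promoter, chr5:92328030-92328329, minus strand: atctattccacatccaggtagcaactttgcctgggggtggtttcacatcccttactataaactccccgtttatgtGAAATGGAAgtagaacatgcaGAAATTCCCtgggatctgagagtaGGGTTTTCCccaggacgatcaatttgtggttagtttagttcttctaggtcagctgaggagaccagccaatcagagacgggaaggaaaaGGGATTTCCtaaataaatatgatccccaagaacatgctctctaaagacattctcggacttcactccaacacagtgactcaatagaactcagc
Cxcl1 promoter, chr5:90890995-90891294, plus strand: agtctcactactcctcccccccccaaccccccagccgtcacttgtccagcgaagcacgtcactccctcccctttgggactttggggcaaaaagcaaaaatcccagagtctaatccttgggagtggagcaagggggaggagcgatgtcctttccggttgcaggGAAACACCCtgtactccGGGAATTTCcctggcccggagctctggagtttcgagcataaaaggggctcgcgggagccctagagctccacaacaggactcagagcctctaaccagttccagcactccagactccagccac
Cxcl2 promoter, chr5:90903649-90903948, plus strand: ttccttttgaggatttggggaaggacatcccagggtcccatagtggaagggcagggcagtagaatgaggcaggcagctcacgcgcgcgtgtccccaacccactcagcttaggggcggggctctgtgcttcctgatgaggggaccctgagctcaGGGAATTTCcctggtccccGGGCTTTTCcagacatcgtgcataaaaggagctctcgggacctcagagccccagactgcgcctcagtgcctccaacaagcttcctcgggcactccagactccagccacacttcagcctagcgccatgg

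In the Cxcl10 promoter the first capitals are the interferon-type match, 213 to 205 bases before the start, and the last are an NF-kappa-B-type match, 103 to 95 bases before it, with another of that type on the opposite strand between them. Cxcl9 likewise holds 1 interferon-type match, 175 to 167 bases before its start, and 3 NF-kappa-B-type matches, the nearest 42 to 34 bases before it. Cxcl1 and Cxcl2 hold 2 NF-kappa-B-type matches each and no interferon-type one, which says only that those letters are not in this window. Promoters were found for 34 of the 48 genes, and Cxcl11 was not among them. These 34 genes have 36 promoters. The NF-kappa-B-type letters occur in 14 of the 36, beside 15.2% of 32851 promoters of the same length. The interferon-type letters occur in 7 of the 36, beside 8.56% of all. Both shares lie above that of all promoters, which was not tested. A match describes the letters and says nothing of binding.

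Neutrophils are drawn by the ligands of CXCR2. Cxcl1 had 6.92, 5.17 and 5.33 in DeltaHepKlf6 1, 2 and 3, against 7.12, 6.28 and 5.98 in Control 1, 2 and 3. DeltaHepKlf6 1 was nearly as high as Control 1, while the other DeltaHepKlf6 livers lay below every Control liver. Cxcl1 differed by -0.65 ± 0.54 (SE) on the log2 scale, interval -1.95 to 0.65 (limma, adjusted p = 0.998). This was -1.21 without DeltaHepKlf6 1, -0.34 without DeltaHepKlf6 2, -0.42 without DeltaHepKlf6 3, -0.32 without Control 1 and -0.22 with array weights, which give arrays that vary more less influence.

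Cxcl2, with the same receptor and a neighbouring gene, had 4.74, 5.23 and 4.99 in DeltaHepKlf6 1, 2 and 3, against 5.98, 5.33 and 5.16 in Control 1, 2 and 3. Control 1 was again the highest array, and DeltaHepKlf6 1, high for Cxcl1, was the lowest for Cxcl2. Its log2 difference was -0.50 ± 0.26 (SE), and -0.26 without Control 1. Cxcl5, which also binds CXCR2, had means of 3.33 in DeltaHepKlf6 and 3.15 in Control, far below the array median.

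The receptor gene Cxcr2 had 6.27, 6.25 and 5.12 in DeltaHepKlf6 1, 2 and 3, against 6.89, 6.10 and 5.78 in Control 1, 2 and 3. DeltaHepKlf6 3 alone lay below the Control range and Control 1 alone above the DeltaHepKlf6 range. Its log2 difference of -0.38 ± 0.42 (SE) became 0.0033 without DeltaHepKlf6 3, -0.06 without Control 1, -0.61 without Control 3 and -0.20 with array weights. Cxcr1, the other receptor of neutrophils, differed by 0.22 ± 0.18 (SE) with means of 5.38 in DeltaHepKlf6 and 5.15 in Control.

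Neutrophil markers were lower in DeltaHepKlf6 livers in 8 of 10 measured genes, or 80.0%, beside 62.1% of all single-gene genes. With single arrays left out, 7 to 9 of the markers were lower. Their mean log2 level was 5.12, 4.90 and 4.67 in DeltaHepKlf6 1, 2 and 3. In Control 1, 2 and 3 it was 5.71, 5.20 and 4.89. Control 1 was the highest array in this list, as it was in Cxcl1, Cxcl2 and Cxcr2. The median log2 difference of the list was -0.277, and -0.16 without Control 1. Csf3r, the receptor of a granulocyte growth factor, averaged 4.22 in DeltaHepKlf6 and 4.63 in Control. Camp, an antimicrobial protein of granules, went the other way with 5.58 in DeltaHepKlf6 and 5.31 in Control. Retnlg, a secreted protein of neutrophils, averaged 5.28 in DeltaHepKlf6 and 6.41 in Control. What part neutrophil number had in Cxcr2 or its ligands was not tested.

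Inflammatory monocytes leave the blood on signals through CCR2. The ligand Ccl2 had means of 4.90 ± 0.235 in DeltaHepKlf6 and 5.11 ± 0.373 in Control (SD, n = 3 each), a log2 difference of -0.21 ± 0.23 (SE), and 0.0017 without Control 1. Ccl7 differed by -0.16 ± 0.21 (SE) and Ccl12 by 0.23 ± 0.21 (SE), and Ccl8, known in mouse as a ligand of CCR8, by -0.23 ± 0.21 (SE). These 4 genes lay below the array median with overlapping groups, and Ccl2, Ccl7 and Ccl8 were highest in Control 1.

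The receptor gene Ccr2 had 5.32, 5.24 and 5.32 in DeltaHepKlf6 1, 2 and 3, against 4.91, 5.62 and 6.07 in Control 1, 2 and 3. The Control livers spread to both sides of the DeltaHepKlf6 livers, and Control 1, highest for the ligand Ccl2, was lowest for the receptor. Ccr2 differed by -0.24 ± 0.29 (SE), -0.55 without Control 1 and 0.03 without Control 3.

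Patrolling monocytes and some resident macrophages carry CX3CR1, whose ligand is the membrane-bound Cx3cl1. Cx3cr1 had 5.95, 5.82 and 6.20 in DeltaHepKlf6 1, 2 and 3, against 5.76, 6.06 and 6.07 in Control 1, 2 and 3, values that interleave. Cx3cr1 differed by 0.03 with an interval of -0.38 to 0.43. Cx3cl1 differed by -0.15 ± 0.15 (SE).

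Markers of macrophages and Kupffer cells were lower in DeltaHepKlf6 livers in 14 of 14 measured genes, beside 62.1% of all single-gene genes. Their median log2 difference was -0.445, and 13 or 14 were lower with single arrays left out. By limma 0 of them passed the test, and 1, Cd163, had an unadjusted p under 0.05, or 7.14%, beside 3.21% of all probe sets. The median was -0.26 without DeltaHepKlf6 3. Their mean log2 level was 7.11, 7.36 and 6.59 in DeltaHepKlf6 1, 2 and 3, against 7.77, 7.41 and 7.27 in Control 1, 2 and 3. DeltaHepKlf6 3 was lowest and Control 1 highest. The groups did not overlap in 4 of 14 genes, Clec4f, Cd163, Cd5l and Timd4, or 28.6%, beside 6.72% of all probe sets. The chemokine receptor genes of monocytes and macrophages differed by -0.24 (Ccr2), 0.03 (Cx3cr1) and 0.10 (Ccr1) on the log2 scale. The part of macrophage content in the chemokine values was not tested.

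Ccl3, Ccl4, Ccl5 and Ccl9 attract monocytes, macrophages or T cells. Ccl9, a ligand of CCR1 that mice but not humans have, had 9.35, 9.08 and 8.89 in DeltaHepKlf6 1, 2 and 3, against 9.04, 9.11 and 8.71 in Control 1, 2 and 3. Every array read it well above its median, and the ranges overlapped, with a log2 difference of 0.15 ± 0.19 (SE) and an interval of -0.30 to 0.60. The difference was 0.03 without DeltaHepKlf6 1, 0.03 without Control 3 and up to 0.26 without DeltaHepKlf6 3. Ccl3 had 5.37, 5.78 and 5.33 in DeltaHepKlf6 1, 2 and 3, against 6.09, 5.58 and 5.39 in Control 1, 2 and 3. Control 1 alone lay above the DeltaHepKlf6 range of Ccl3, and the log2 difference of -0.19 became 0.0083 without it.

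Ccl5, made by T cells, NK cells and platelets among others, had 5.45, 5.52 and 4.69 in DeltaHepKlf6 1, 2 and 3, against 4.98, 6.25 and 5.53 in Control 1, 2 and 3. Control 2 was the highest array and DeltaHepKlf6 3 the lowest. Ccl5 differed by -0.37 ± 0.38 (SE), and by -0.04 without Control 2. Ccl4 differed by -0.06 ± 0.23 (SE), and the receptor gene Ccr1, with means of 3.22 in DeltaHepKlf6 and 3.13 in Control, by 0.10 ± 0.13 (SE).

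**Figure D3:**
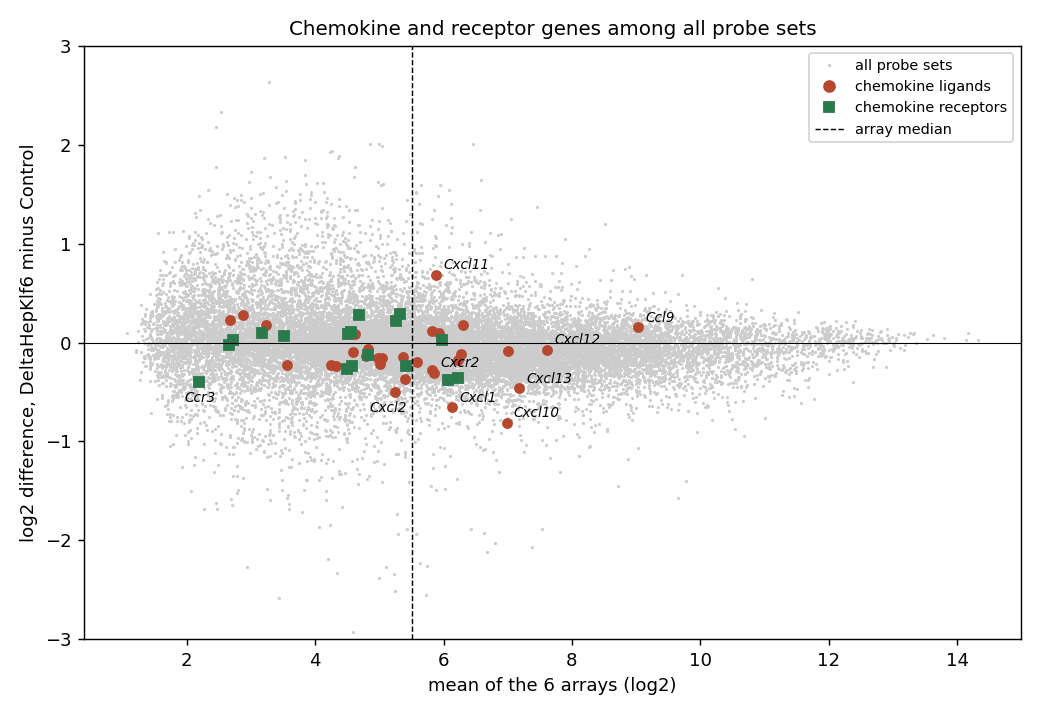
Mean log2 value over the 6 arrays (x axis) against the log2 difference, DeltaHepKlf6 minus Control (y axis), for all 23332 probe sets (grey), chemokine ligands (circles) and receptors (squares); the dashed line is the array median of 5.508. The chemokine genes lie inside the cloud of all probe sets, with Cxcl10 at -0.81 and Cxcl11 at 0.69 as their outermost points.

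Several chemokines are made in resting tissue and position leukocytes there. Cxcl12, the ligand of CXCR4 that holds stem and immune cells in place, had 7.45, 7.76 and 7.53 in DeltaHepKlf6 1, 2 and 3, against 7.76, 7.61 and 7.58 in Control 1, 2 and 3. These values hardly varied between livers, and the log2 difference was -0.07 with an interval of -0.42 to 0.28, which turned to 0.02 after quantile normalization. Its receptor gene Cxcr4 was below the array median with a log2 difference of 0.28 ± 0.18 (SE).

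Cxcl13, the B cell attractant that binds CXCR5, had 6.80, 7.26 and 6.79 in DeltaHepKlf6 1, 2 and 3, against 8.02, 7.27 and 6.95 in Control 1, 2 and 3. Control 1 was high, Control 2 lay just above the highest DeltaHepKlf6 liver and Control 3 lay within the DeltaHepKlf6 range. On the log2 scale Cxcl13 differed by -0.46 ± 0.31 (SE), interval -1.20 to 0.28 (limma, adjusted p = 0.998), and by -0.16 without Control 1. Its receptor gene Cxcr5 averaged 2.73 in DeltaHepKlf6 and 2.71 in Control, low on the array. The B cell markers were lower in DeltaHepKlf6 livers in 4 of 6 measured genes, or 66.7%, beside 62.1% of all single-gene genes. Without DeltaHepKlf6 1 only 1 was lower. The mean log2 level of the B cell markers ranged from 3.95 to 4.27 in DeltaHepKlf6 and from 4.07 to 4.28 in Control.

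Cxcl16, a transmembrane chemokine and scavenger receptor that binds CXCR6 on NKT and T cells, had 5.75, 6.05 and 5.31 in DeltaHepKlf6 1, 2 and 3, against 6.30, 5.93 and 5.80 in Control 1, 2 and 3. DeltaHepKlf6 3 was the lowest array and Control 1 the highest, with a log2 difference of -0.31 ± 0.24 (SE), -0.11 without DeltaHepKlf6 3, -0.16 without Control 1 and -0.48 without DeltaHepKlf6 2. Its receptor gene Cxcr6 had 5.99, 4.92 and 5.48 in DeltaHepKlf6 1, 2 and 3, against 4.33, 6.05 and 5.15 in Control 1, 2 and 3. For the receptor Control 1 was the lowest array, and the log2 difference of 0.29 ± 0.48 (SE) was -0.14 without it.

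Cxcl14, a chemokine of epithelia and other resting tissue, had 5.69, 5.98 and 5.37 in DeltaHepKlf6 1, 2 and 3, against 6.06, 6.08 and 5.72 in Control 1, 2 and 3. The ranges overlapped, and the log2 difference was -0.27 ± 0.20 (SE), -0.12 without DeltaHepKlf6 3 and -0.42 without DeltaHepKlf6 2. Cxcl17, a chemokine of mucosal tissue, had 5.64, 6.09 and 6.20 in DeltaHepKlf6 1, 2 and 3, against 5.87, 5.84 and 5.92 in Control 1, 2 and 3. The Control livers were close together inside the DeltaHepKlf6 range, with a log2 difference of 0.10 ± 0.18 (SE). Cxcl15, a lung chemokine of mice, lay far below the array median with means of 3.02 in DeltaHepKlf6 and 2.74 in Control.

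Mucosal and skin homing uses Ccl25 with its receptor CCR9, and Ccl28 with CCR10. Ccl25 had 6.37, 6.64 and 6.14 in DeltaHepKlf6 1, 2 and 3, against 6.29, 6.12 and 6.22 in Control 1, 2 and 3. Its log2 difference was 0.17 ± 0.17 (SE), 0.05 without DeltaHepKlf6 2 and 0.29 without DeltaHepKlf6 3, and of the Control values only that of Control 2 lay outside the DeltaHepKlf6 range. Ccl28 had 6.52, 5.69 and 6.19 in DeltaHepKlf6 1, 2 and 3, against 6.29, 6.12 and 6.53 in Control 1, 2 and 3. DeltaHepKlf6 2 alone was low, and the log2 difference of -0.18 became 0.04 without it.

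Ccr10 had 5.98, 6.38 and 5.78 in DeltaHepKlf6 1, 2 and 3, against 6.78, 6.29 and 6.13 in Control 1, 2 and 3. Control 1 was highest and the groups overlapped, with a log2 difference of -0.35 ± 0.24 (SE) and -0.16 without Control 1. Ccr9 differed by -0.13 ± 0.17 (SE). Ccl20, which draws cells with CCR6, differed by -0.10 ± 0.19 (SE), and Ccr6 by 0.06 ± 0.16 (SE), both below the array median.

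Eosinophils are recruited through CCR3. Ccr3 had 2.09, 1.96 and 1.91 in DeltaHepKlf6 1, 2 and 3, against 2.29, 2.32 and 2.56 in Control 1, 2 and 3. Each DeltaHepKlf6 liver was below each Control liver, by -0.40 ± 0.14 (SE) on the log2 scale between the means, interval -0.75 to -0.06 (limma, unadjusted p = 0.0276, adjusted p = 0.998). Leaving out single arrays gave -0.46 to -0.32. Ccr3 has the lowest mean of the 48 probe sets, 2.19, in the dimmest 25% of the array, so whether the receptor is expressed in these livers is unknown.

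The eotaxins bind CCR3. Ccl11 had 6.20, 6.33 and 6.12 in DeltaHepKlf6 1, 2 and 3, against 6.06, 6.29 and 6.64 in Control 1, 2 and 3, with a log2 difference of -0.11 ± 0.18 (SE), and 0.04 without Control 3. Ccl24 had 5.87, 5.96 and 5.81 in DeltaHepKlf6 1, 2 and 3, against 5.67, 5.90 and 5.71 in Control 1, 2 and 3. Both genes overlapped between the groups, and Ccl24 differed by 0.12 ± 0.13 (SE). Ccl26, listed with the eotaxins and below the array median, differed by -0.23 ± 0.27 (SE).

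Ccl22 and Ccl17, made mostly by dendritic cells and macrophages, bind CCR4 on regulatory and helper T cells. Ccl22 had 4.13, 4.14 and 4.35 in DeltaHepKlf6 1, 2 and 3, against 4.38, 4.59 and 4.37 in Control 1, 2 and 3. The groups did not overlap, yet DeltaHepKlf6 3 was only just below Control 3 and Control 1. Ccl22 differed by -0.24 ± 0.14 (SE) on the log2 scale, interval -0.58 to 0.10 (limma, unadjusted p = 0.139, adjusted p = 0.998). Ccl17 differed by -0.14 ± 0.19 (SE) and Ccr4 by -0.02 ± 0.30 (SE).

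The other genes of the system were all below the array median with overlapping groups. Ccr7, which guides dendritic and naive T cells to lymph nodes, differed by -0.23 ± 0.45 (SE) and was highest in Control 2. Xcl1, a chemokine of NK and T cells, differed by -0.15 ± 0.14 (SE), and its receptor gene Xcr1, a marker of cross-presenting dendritic cells, by -0.27 ± 0.25 (SE). Ccl1, a ligand of CCR8, differed by 0.09 ± 0.20 (SE), and Ccr1l1, a relative of Ccr1, by 0.09 ± 0.43 (SE). The listed ligands of CCR7 were not analysed here. Dendritic cell markers, with Xcr1 among them, were lower in DeltaHepKlf6 livers in 4 of 6 measured genes, or 66.7%, beside 62.1% of all single-gene genes. Their mean log2 levels were 4.85 to 5.24 in DeltaHepKlf6 and 4.95 to 5.13 in Control.

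**Figure D4:**
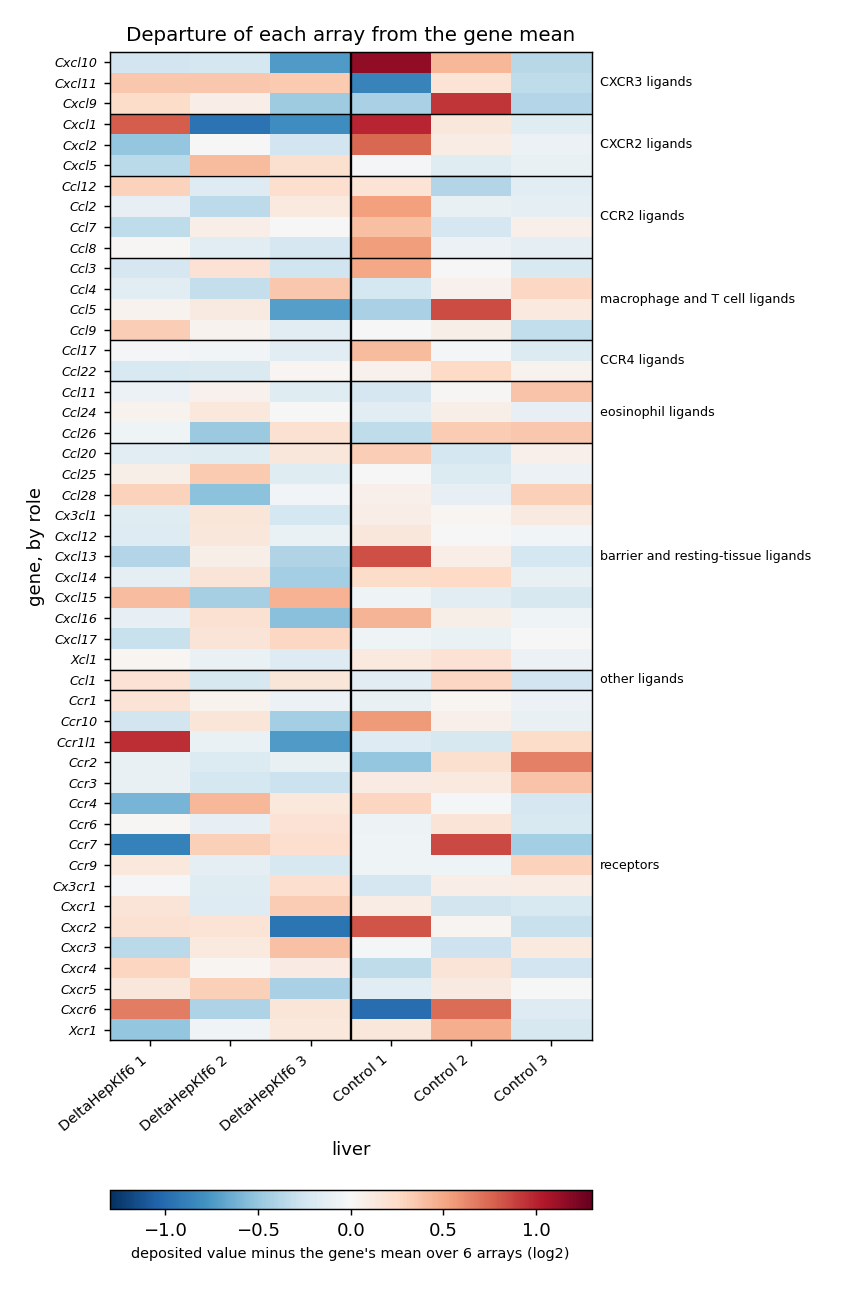
Deposited value minus the gene's mean over the 6 arrays (colour, log2) for the 48 genes in rows, ordered by role, and the 6 livers in columns, DeltaHepKlf6 left of the line and Control right. Control 1 is the highest array for 14 genes (1 of them, Cxcl12, tied with DeltaHepKlf6 2), among them Cxcl10, Cxcl1, Cxcl2 and Cxcl13, and DeltaHepKlf6 3 is the lowest for 16.

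Livers of one genotype differed among themselves. The median SD was 0.251 in DeltaHepKlf6 and 0.264 in Control over the 48 genes, against 0.26 in DeltaHepKlf6 and 0.217 in Control over all probe sets. Control 1 was the highest of the 6 arrays, ties counted for each array, for 14 of 48 genes, or 29.2%, and for 29.4% of all probe sets. DeltaHepKlf6 3 was the lowest for 16 of 48 genes, or 33.3%, and for 33.0% of all probe sets. These shares among chemokine genes are close to those on the whole array.

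Genes that act with the chemokines were read from lists. By limma 0 of these 51 genes passed the test, and 1, Ackr3, had an unadjusted p under 0.05 (0.0438), or 1.96%, beside 3.21% of all probe sets. The groups did not overlap in 5 of 51, Ackr3, Irf7, Tnfaip3, Fgr and Pik3r5, all lower in DeltaHepKlf6 livers, or 9.8%, beside 6.72% of all probe sets. Of chemokines and receptors with other kinds of names, 6 of 8 measured had the lower mean in DeltaHepKlf6 livers. That is 75.0%, beside 62.1% of all single-gene genes, and the median log2 difference was -0.138. With single arrays left out 5 to 8 had the lower mean, and the median was -0.26 to -0.08. Ackr3, a scavenging receptor for Cxcl12, had 4.54, 4.76 and 4.54 in DeltaHepKlf6 1, 2 and 3, against 5.25, 4.78 and 5.10 in Control 1, 2 and 3, which is -0.43 ± 0.17 (SE) without overlap. Ppbp, a platelet chemokine that binds CXCR2, averaged 7.02 in DeltaHepKlf6 and 7.46 in Control. Cmklr1, the receptor of chemerin, averaged 7.55 in DeltaHepKlf6 and 7.90 in Control.

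The receptor signalling list mixes genes that carry the signal with genes that damp it, so its count gives no direction of signalling. Of these, 17 of 19 measured had the lower mean in DeltaHepKlf6 livers, or 89.5%, beside 62.1% of all single-gene genes. The median log2 difference was -0.147. Without DeltaHepKlf6 3 the count was 10 of 19 with a median of -0.02, and without Control 1 it was 13 of 19 with a median of -0.06. Rac2, a GTPase of leukocyte migration, differed by -0.41 ± 0.20 (SE), Fgr, a kinase of myeloid cells, by -0.21 ± 0.13 (SE), and Pik3cg, the lipid kinase that G-protein beta and gamma subunits activate, by 0.40 ± 0.21 (SE). Of genes that induce chemokines or limit their induction, 14 of 17 were lower, or 82.4%, with a median of -0.167. Without Control 1 it was 10 of 17 with a median of -0.07, and without DeltaHepKlf6 3 it was 12 of 17 with a median of -0.09. The interferon factors Irf7 and Irf1 differed by -0.30 ± 0.16 (SE) and -0.32 ± 0.22 (SE), and Tnfaip3, an NF-kappa-B target that limits the pathway, by -0.28 ± 0.20 (SE). Control 1 read 6.18 for Tnfaip3, and no other array read above 5.58. Of proteases and glycans that process or hold chemokines, 6 of 7 were lower, or 85.7%, with a median of -0.11. Without DeltaHepKlf6 3 it was 4 of 7 with a median of -0.0033. Mmp2, a matrix protease that also cuts chemokines, differed by -0.23 ± 0.19 (SE).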

How the data were processed

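Liver RNA of 6 mice was read on exon arrays. The authors deposited 1 table of log2 values for 23332 probe sets. The submitters' processing notes name limma, RMA and Affymetrix Expression Console, without version or role, and no build was found in the labels or headers. RMA corrects background, normalizes the arrays together and summarises probes. No arrays were identical (0 pairs), and 0 columns went unused.

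The platform annotation gives 1 gene for 14996 probe sets, several for 1019 (2 with a chemokine name, left out) and none here for 7317. All 48 genes matched RefSeq. The fit was lmFit with eBayes (limma 3.58.1, R 4.3.3) over all probe sets, DeltaHepKlf6 minus Control, without covariates or filter, with Benjamini-Hochberg adjustment over all of them. The number of arrays limits the precision. In simulated data for this comparison over 23332 probe sets, it called 16% of 100 genes shifted by 1 and 86% of 100 shifted by 2 (log2). Tables and plots used Python 3.11.15, pandas 2.3.3 and matplotlib 3.10.9.

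Genes and lists were chosen with earlier results of these data known. Values in each array were due for genes above the array median, at an unadjusted p under 0.05 or without overlap. Those of Cxcl2, Ccl5, Ccr2, Cxcr6 and Ackr3 were added after their values were seen. Up to 3 genes of each other list were named, by smallest unadjusted p. Timd4 and Pik3r5 were named besides because their groups did not overlap, the hepatocyte genes for their level and Cd3d for its higher mean. Alternatives were an intensity trend, filters on dim probe sets, quantile normalization, equal medians, array weights, a replicate block and leaving out each array; the leaving-out of arrays for lists was chosen after seeing the data.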

Additional observations from a re-analysis of the deposited data

How the results depend on the processing

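No chemokine or receptor gene was called under any of the 13 other fits run, where the smallest adjusted p among them was 0.64, without DeltaHepKlf6 2. The median log2 difference stayed below 0 in these fits, from -0.15 to -0.05, and the count of genes with a lower mean was 28 to 32 with single arrays left out. Without the dimmest 50% of probe sets only 18 genes remained, of which 12 were lower, 1 had an unadjusted p under 0.05 and 1 had groups that did not overlap. The count at an unadjusted p under 0.05 was 1 with an intensity trend, 1 without the dimmest 25%, 1 with array weights, 3 with the replicate block and 0 to 3 with single arrays left out. The count without overlap was 5 to 14 with single arrays left out, where fewer arrays make separation easier and 12.8% to 26.2% of all probe sets were separated. The count above the array median, 18 of 48, fell to 15 against the median of single-gene probe sets. It fell to 12 where all 6 arrays had to read above their own median. The count was 18 with quantile normalization and 18 or 19 with single arrays left out. Of 257 values of the 20 genes plotted by array, 12 had the opposite sign. These were Cxcl12 at 0.02 with quantile normalization, and Cx3cr1 at -0.02 and Ccl28 at 0.0022 with array weights. With single arrays left out Ccl3 ranged from -0.34 to 0.0083, Ccl11 from -0.25 to 0.04, Ccl28 from -0.37 to 0.04, Cxcr2 from -0.61 to 0.0033, Cxcl9 from -0.32 to 0.36, Cx3cr1 from -0.08 to 0.11 and Cxcl17 from -0.01 to 0.27. The cause of these turns was not tested. The labels do not state that same-numbered mice are pairs, so the numbers are not read as pairs. Deviations from the group mean correlated at -0.133, -0.167 and 0.21 between mice numbered 1, 2 and 3. With 3 mice per group these values cannot exclude pairing or a shared batch. The replicate block changed no call, with 3.79% of all probe sets at an unadjusted limma p under 0.05, beside 3.21% without it. Taking the probe set of largest variance for a gene left the 48 genes as they were, since each has 1 probe set.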

Other observations

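Which genes were extreme in Control 1 and Control 2 was counted after the values were seen and is given without a test. Control 1 held the highest value of the 6 arrays for 14 of 48 genes, tied in Cxcl12, and otherwise Cxcl1, Cxcl2, Cxcl10, Cxcl13, Cxcl16, Ccl2, Ccl3, Ccl7, Ccl8, Ccl17, Ccl20, Ccr10 and Cxcr2, or 29.2%, beside 29.4% of all probe sets. The same liver held the lowest value for 8, Cxcl11, Ccl11, Ccl24, Ccr1, Ccr2, Cx3cr1, Cxcr4 and Cxcr6, or 16.7%, beside 13.5%. Control 2 held the highest value for 9 of 48 genes, Cxcl9, Cxcl14, Ccl1, Ccl5, Ccl22, Xcl1, Ccr7, Cxcr6 and Xcr1, or 18.8%, beside 10.9% of all probe sets. Without Control 1 Cxcl2 differed by -0.26 and Cxcl13 by -0.16, and without Control 2 Ccl5 differed by -0.04 and Cxcr6 by 0.72.

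The stellate cell markers were lower in DeltaHepKlf6 livers in 7 of 9 measured genes and the liver endothelial markers in 7 of 9, and bile duct markers in 2 of 4. The share of all single-gene genes was 62.1%. With single arrays left out, 7 to 8 stellate, 5 to 7 endothelial and 1 to 2 bile duct markers were lower. Hepatocyte markers were lower in 2 of 4.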
